A study of Rattus norvegicus with 18 samples.

Results

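Acacb, Lpin1, Ppard, Ppargc1a, Ucp2, Fto, Pfkm and Pklr, 8 genes of lipid metabolism, glycolysis and energy balance, were followed through DNA methylation comparisons of fetal rat germ cells. The values are those of the regions that the authors listed as differentially methylated and attached to a RefSeq transcript of one of these genes. The genes were chosen by name after results of these comparisons were known, so that the counts below describe the genes and test nothing. There are 83 such regions among 61661 in the 4 tables of comparisons, and 8 genes among the 8243 with a gene symbol and a region in any table.

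The cells were germ cells, called gonocytes in the labels, which a cell sorter had separated. The fetuses were Sprague-Dawley rats and all groups, controls included, carried a green fluorescent protein expressed in germ cells (genotype GFP-GCS). After mating, 5 dams received a control diet (18% of calories as fat) and 5 a high-fat diet, HFD (45% of calories as fat). Gestational day (GD) 0 was the day on which sperm were found in the smear. At GD16 there were 4 samples of control males, 3 of control females, 4 of HFD males and 3 of HFD females, and at GD18 there were 4 of control males, which makes 18 samples in 5 groups. According to the design text, 4 samples came from an earlier project and were analysed again, without naming their group, so the project of origin cannot be told apart from the group for any group of 4. Whether samples came from separate litters is not stated. Expression was not measured, so the cells could not be checked against germ cell markers.

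The libraries were made for bisulfite sequencing of a rat panel of captured target regions, and the level of a region is the mean share of methylated CpGs, in percent. All levels below are the authors' means over the samples of a group. Values per sample, read counts and coverage were not available for use, so the depth and the spread between animals are unknown and no test across samples was possible. "Higher", "lower", "rose" and "fell" mean that the authors listed the region with that direction. Listed regions differ by at least 10 points, and the largest false discovery rate (FDR) in any of the authors' deposited tables lies just under 0.05. The sources used here do not say what served as replicates in the authors' test, and p-values as small as 1.99e-107 stand beside groups of 3 and 4 samples in the authors' deposited table. The control means were not the same in all tables. At 1153 regions with the same coordinates in the HFD male table and the control sex table, the control male mean differed by more than 0.1 points at 214, and by up to 13.5 points. At 205 of these 214 the number of CpGs differed between the tables as well.

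Fetal germ cells erase most of the methylation they inherited from the embryo before new, sex-specific marks are laid down. The 8 genes act in different steps of fuel use. Acacb makes malonyl-CoA at the mitochondrion, which holds back fatty acid oxidation, and Lpin1 is a phosphatidate phosphatase that makes diacylglycerol for triglyceride synthesis. Ppard is a nuclear receptor for fatty acids and Ppargc1a a coactivator that drives mitochondrial biogenesis. Ucp2 is a carrier of the inner mitochondrial membrane, and Fto demethylates adenosines in RNA and is known from the association of its human introns with body weight. Pfkm is the muscle form of phosphofructokinase, the committing step of glycolysis, and Pklr is the pyruvate kinase of liver and red blood cells, which ends it.

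Since intergenic rows carry no transcript in the tables, a member could only be a region annotated to a gene. Of the 83 regions, 68 were annotated as introns and 15 as exons, and none as a promoter. Among all regions with a gene symbol, introns made up 66.4 to 72.6% over the 4 tables and exons 14.4 to 16.5%. Promoters made up 4.87% in the HFD male table, 6.73% in the HFD female table, 4.52% in the control sex table and 8.84% in the GD18 table. In RefSeq promoter windows (GRCr8 build, 250 bases before to 50 after the start), found for 7 of the 8 genes, Fto had 29 CpGs and Ucp2 19. Acacb and Pklr had 8 each, Pfkm 7, Ppargc1a 4 and Lpin1 1, against a median of 7 over 33469 windows. Ppard had no entry.

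In control germ cells at GD16, the question is how males and females differ. All 8 genes had a region in this comparison, as did 94.9% of the 8243 genes. All of their 60 regions were higher in males, against 99.7% of the 48127 regions of that table. The male level ran from 12.4 to 33.8% with a median of 19.2%, and the female level from 0.5 to 11.8% with a median of 5.0%. The medians over all regions of the table, 19.6% in males and 4.7% in females, were close to these. The lowest male mean lay above the highest female mean. Listed regions differ by at least 10 points, so this separation follows in part from the listing. It does not hold over the regions of the diet comparisons, where control females had 54.2% at a Pklr region and control males 0% at a Lpin1 region.

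**Figure D1:**
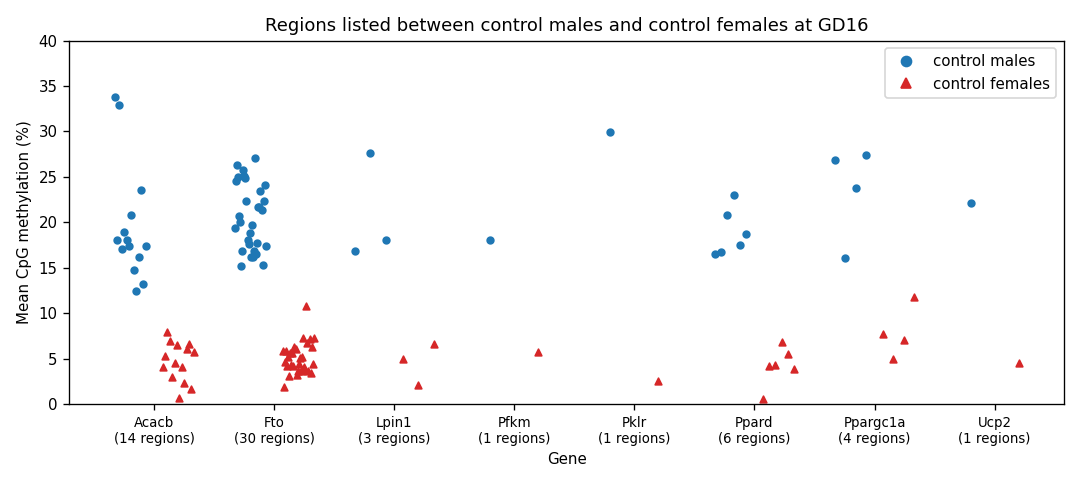
Mean CpG methylation in percent (vertical axis) at each of the 60 regions listed between control males (circles) and control females (triangles) at GD16, by gene, each point being the authors' group mean. Every circle stands above every triangle, with 12.4 to 33.8% in males and 0.5 to 11.8% in females. This follows in part from the listing, which needs a difference of at least 10 points.

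Among the lipid genes, Acacb (NM_053922) had 14 regions over 72.14 kb of chromosome 12, 10 of them in introns and 4 in exons. The largest difference lay in an intron at 48131872 to 48132163, with 33.8% in control males and 4.1% in control females over 10 CpGs. The region with the most CpGs, 23 in an exon at 48145032 to 48145667, had 17.1% in males and 6.9% in females. A stretch of 52 bp at 48143639 held 32.9% in males against 7.9% in females, while its neighbour 76 bp before it held 18.1% against 5.3%. Acacb thus had high and moderate male levels side by side, on a low female level throughout. Lpin1 (NM_001012111, chromosome 6) had 3 intron regions, and its largest difference, at 41841613 to 41841824, was 27.6% in males against 2.1% in females. The region of Lpin1 with the most CpGs had 16.8% against 4.9% over 8 CpGs.

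Among the regulators, Ppard (NM_013141, chromosome 20) had 6 intron regions with narrow male levels, from 16.5 to 23.0%. Its largest difference was 20.8% against 4.3% at 7837094 to 7837272, and its region with the most CpGs, 23 at 7840766 to 7841828, had 23.0% against 6.8%. The lowest female level of all 60 regions, 0.5% against 16.5% in males, lay in Ppard at 7821591 to 7822018. Ppargc1a (NM_031347, chromosome 14) had 4 regions with the highest female level of the set, 11.8% against 27.4% in males at 63170869 to 63171227. Its largest difference and most CpGs fell in 1 intron region at 63110559 to 63111001, with 26.9% against 7.7% over 8 CpGs. Ucp2 (NM_019354, chromosome 1) had 1 intron region at 165511740 to 165512434, annotated as a B4A SINE repeat, with 22.1% in males and 4.5% in females over 14 CpGs.

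Fto (NM_001039713) held 30 of the 60 regions, all of them in introns and spread over 308.36 kb of chromosome 19. Male levels ran from 15.2 to 27.1% with a median of 20.4%, and female levels from 1.9 to 10.8% with a median of 4.9%. The largest difference was 24.5% against 1.9% at 16783071 to 16783402, and the region with the most CpGs, 25 at 16914720 to 16915321, had 16.8% against 5.2%. The male levels of Fto thus spanned less than those of Acacb (12.4 to 33.8%), although its regions covered a longer stretch. The number of regions was not set against gene length or captured targets, so 30 of 60 cannot be called particular to Fto. The glycolytic genes had 1 region each. In an exon of Pklr (NM_012624, chromosome 2, 188453411 to 188453912) males had 29.9% and females 2.5% over 11 CpGs. In an intron of Pfkm (NM_031715, chromosome 7, 139721331 to 139721733) they had 18.1% and 5.7% over 6 CpGs.

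The next question is what maternal HFD changed in male germ cells at GD16. Of the 8 genes, 6 had a listed region, against 35.6% of the 8243 genes, and Ppard and Pfkm had none. Of their 12 regions 7 were lower on HFD, beside 74.0% of the 10084 regions of that table, a share the choice of genes does not allow to be read further. The 7 falls, in Acacb, Fto, Lpin1, Ppargc1a and Ucp2, went from 14.5 to 36.9% on control diet to 3.3 to 11.8% on HFD. The 5 rises, in Lpin1, Fto and Pklr, went from 0 to 16.5% on control diet to 22.4 to 98.3%. Over all 2623 rises of the table the median was 10.5% on control diet and 27.7% on HFD. The FDRs of the 12 regions in the authors' deposited table ran from 1.44e-08 to 0.0065.

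**Figure D2:**
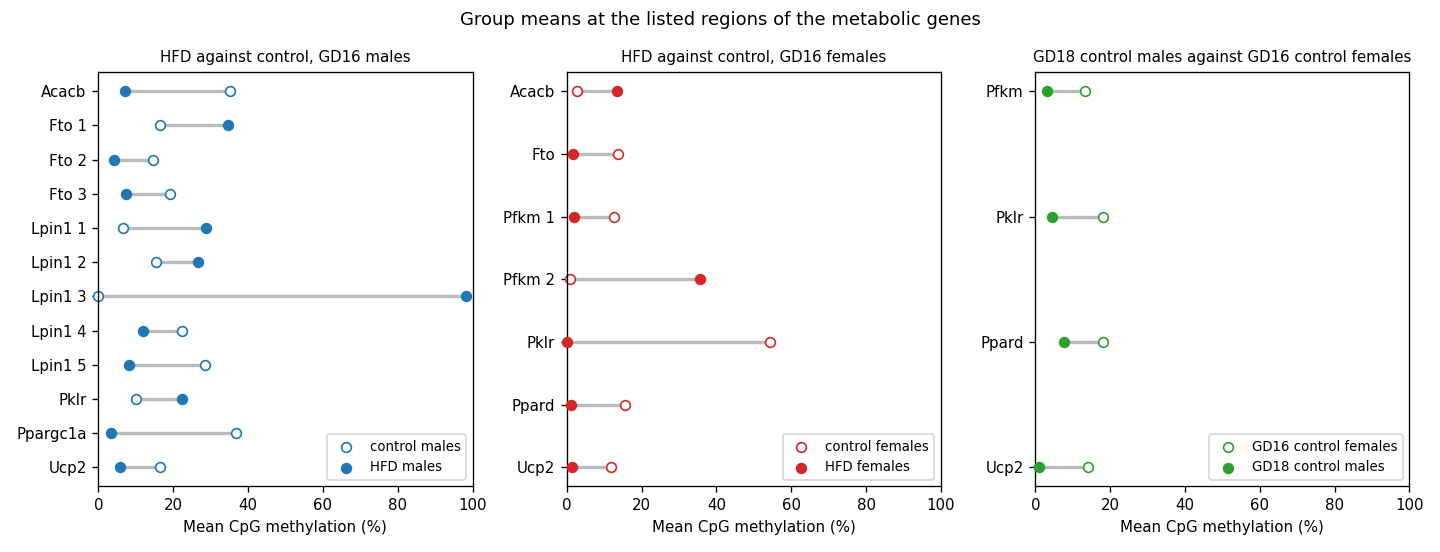
Mean CpG methylation in percent (horizontal axis) at each listed region of the 2 diet comparisons and the GD18 comparison; open and filled circles are the authors' means of the 2 groups, joined by a line, and numbers after a gene count its regions along the chromosome. Most lines are short and lead below 12% in the filled group, and the longest are Lpin1 in males (0 to 98.3%) and Pklr in females (54.2 to 0%).

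Lpin1 had the most diet regions, 5 in introns over 20.72 kb, and they did not share a direction. The first, at 41800203 to 41800323, rose from 6.7 to 28.8%, and the second, at 41811727 to 41812183, from 15.4 to 26.5%, each over 5 CpGs. The third, 87 bp at 41819975 to 41820061 with 6 CpGs, went from 0% in control males to 98.3% on HFD, the second largest of the 2623 rises in that table. Only 438 bp further, at 41820500 to 41820621, the level fell from 22.4 to 11.8%, and 165 bp beyond that, at 41820787 to 41820919, from 28.5 to 8.3%. Near-complete methylation on HFD and 2 falls thus lay within 945 bp. None of the 5 overlapped a region of the control sex table, whose Lpin1 regions began 6601 bp beyond the last of them. Over all 10084 regions of the HFD male table, 1153 had the same coordinates in the control sex table, and overlaps were not counted. Lpin1 had no listed region in HFD females or at GD18.

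In Acacb an intron region fell from 35.2 to 7.1% over 7 CpGs, at chromosome 12, 48131922 to 48132138. It lies within the region of the largest male excess in that gene, where control females had 4.1%. Ppargc1a fell from 36.9 to 3.3% over 5 CpGs of an exon, at chromosome 14, 63170039 to 63170113. This region shares 5 bp with an exon region of the control sex table, where control males had 23.8% and control females 7.0%. In Ucp2 an exon region of 16 CpGs fell from 16.5 to 5.7%, at chromosome 1, 165510044 to 165510226. The control males are the same samples in the diet and the control sex comparison, so the overlapping values at Acacb, Ppargc1a and Fto are not independent. Over all 7461 falls of the table the median was 10.3% on HFD and 25.2% on control diet.

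Fto went both ways. An intron region of 18 CpGs rose from 16.5 to 34.6% at chromosome 19, 16914616 to 16915012. It shares 293 bp with the Fto region with the most CpGs in the control sex table, where control males had 16.8% and control females 5.2%. The HFD male mean was thus above both control means. HFD males and control females have no mean over the same CpGs here. An exon region fell from 14.5 to 4.2% over 9 CpGs at 17015970 to 17016187. An intron region of 11 CpGs fell from 19.2 to 7.3% at 17037172 to 17037566, where the overlapping control sex region had 15.3% in males and 3.4% in females. The Pklr region was short, 44 bp and 5 CpGs in an intron at chromosome 2, 188454758 to 188454801, and rose from 10.1 to 22.4%.

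**Figure D3:**
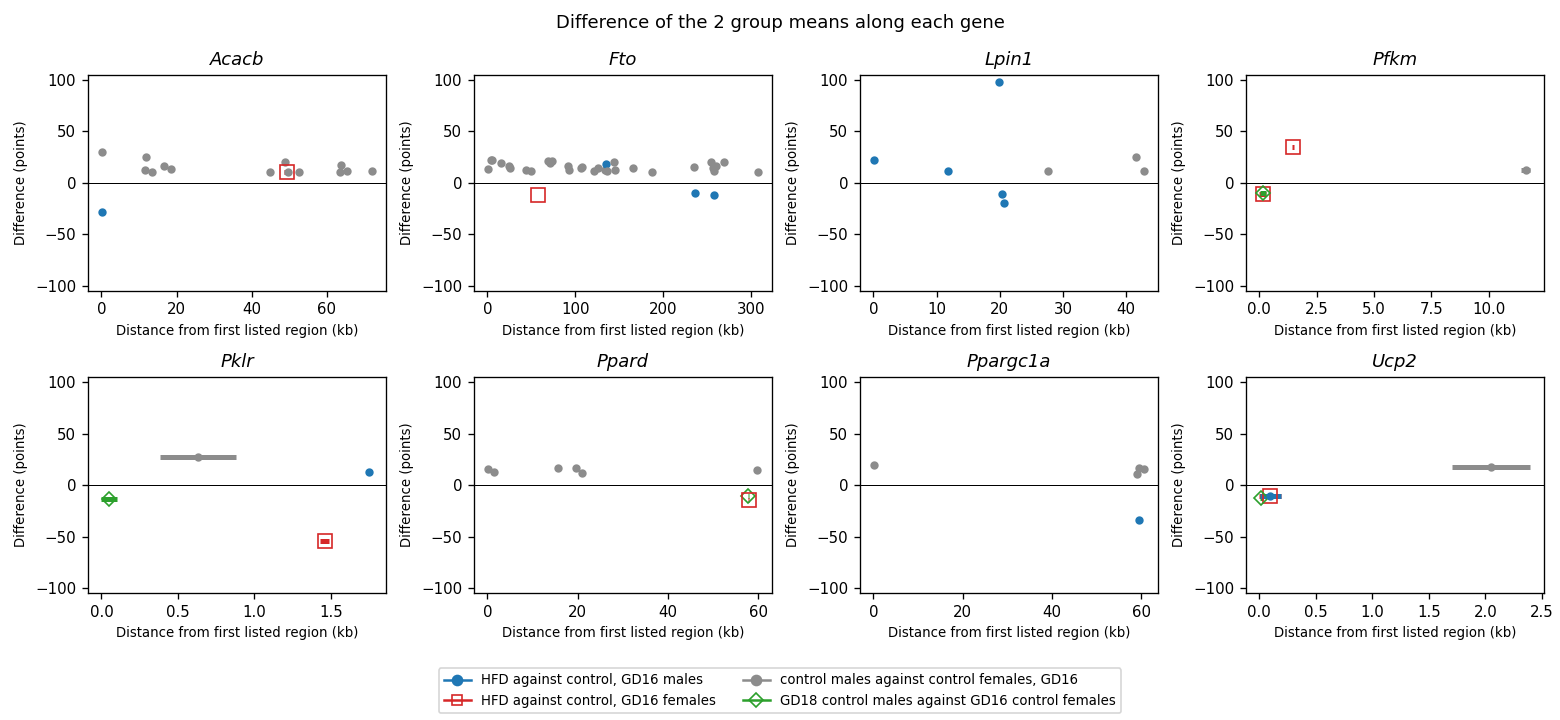
Difference of the authors' 2 group means in points (vertical axis) along each gene, against distance in kb from the first listed region of that gene; horizontal bars show the length of a region, and symbols mark the 4 comparisons. Male excess (grey) lies between 10.1 and 29.7 points in all genes, while the diet points lie on both sides of 0 in Fto, Lpin1, Acacb, Pfkm and Pklr.

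In female germ cells the same question gave fewer regions. Of the 8 genes, 6 had a listed region, against 8.37% of the 8243 genes, and Lpin1 and Ppargc1a had none. Of their 7 regions 5 were lower on HFD, beside 71.7% of the 1832 regions of that table, and here too the choice of genes leaves these shares as a description. The 5 falls started from 11.7 to 54.2% in control females and ended at 0 to 1.9%. Over all 1313 falls of the table the median was 16.1% in control females and 2.4% on HFD. A listed fall needs at least 10 points, so it can only be found where control females are that high. The FDRs of the 7 regions in the authors' deposited table ran from 7.70e-08 to 0.0039. Diet effects in males and females were not tested against each other, since no values per sample were available for use.

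Pklr had the largest difference, 54.2% in control females and 0% on HFD, over 7 CpGs of an exon at chromosome 2, 188454462 to 188454519. It ranked 15th by size among the 1313 falls of that table. The rise in HFD males lay 238 bp further along the gene, so the 2 diet regions of Pklr were neighbours and not the same CpGs. Pfkm had 2 exon regions in opposite directions. The first, at chromosome 7, 139709925 to 139710225, fell from 12.7 to 1.9% over 9 CpGs. The second, at 139711366 to 139711441, rose from 0.9 to 35.6% over 6 CpGs and ranked 14th among the 519 rises.

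In Ppard an intron region of 6 CpGs, at chromosome 20, 7879351 to 7879548, fell from 15.5 to 1.0%. In Fto an intron region of 12 CpGs, at chromosome 19, 16836567 to 16836866, fell from 13.7 to 1.6%, and it overlapped no other Fto region. The Ucp2 exon fell from 11.7 to 1.4% over 17 CpGs (chromosome 1, 165510039 to 165510226). Besides the second Pfkm region, the other rise was at Acacb. An intron region of 1647 bp and 27 CpGs, at chromosome 12, 48180521 to 48182167, rose from 2.6% in control females to 13.5% on HFD. The control sex table divides the same stretch into 2 regions, with 20.8% in control males and 0.7% in control females over 7 CpGs and 14.7% and 4.1% over 15 CpGs. The HFD female mean lay between the means of both control sexes there, but the CpG numbers differ between the comparisons, so the order is approximate. The HFD males of Acacb changed in another intron region, 48382 bp away.

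In the last comparison the case group was GD18 control males and the reference group GD16 control females, which changes day and sex at once. Pfkm, Pklr, Ppard and Ucp2 had 1 region each, 4 of 8 genes against 7.50% of the 8243 genes. All 4 regions were lower in GD18 males, beside 92.5% of the 1618 regions of that table, with 1.0 to 7.7% in GD18 males and 13.4 to 18.1% in control females. Over all 1496 lower regions of the table the median was 3.0% in GD18 males and 16.5% in control females. The FDRs of the 4 regions in the authors' deposited table ran from 0.00062 at Pklr to 0.0429 at Ppard. None of the 4 overlapped a region of the control sex table, which did not list a male excess at these CpGs. Of the 1618 regions, 464 had the same coordinates in the control sex table. Overlaps over all regions were not counted, so 0 of 4 describes these genes only.

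At Pfkm the GD18 males had 3.1% and the control females 13.4% over 9 CpGs, at 139709958 to 139710225. The HFD females had 1.9% and the control females 12.7% over nearly the same bases. The authors annotated this stretch as an intron in the GD18 comparison and as an exon in the diet comparison. At Ppard the levels were 7.7% in GD18 males and 18.1% in control females over 10 CpGs at 7879247 to 7879453, which shares 103 bp with the diet region (1.0% in HFD females, 15.5% in control females). The same control female libraries serve in both comparisons, so the paired values are not independent of each other. At Pklr an exon region at 188453030 to 188453133 had 4.6% in GD18 males and 18.0% in control females over 7 CpGs. Along 1.77 kb of Pklr, control females thus had 18.0%, then 2.5% from 277 bp further on, and then 54.2% after another 549 bp.

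Ucp2 was the single gene of the 8 where HFD males, HFD females and GD18 males were all listed over overlapping CpGs. How many of all genes share this was not counted, so it cannot be called particular to Ucp2. The HFD female and GD18 comparisons also use the same control females. In this exon the means were 16.5% in control males and 5.7% in HFD males over 16 CpGs, and 11.7% in control females and 1.4% in HFD females over 17 CpGs. In GD18 males the level was 1.0%, against 14.0% in control females, over the 6 CpGs of the first 26 bp. Both control groups at GD16 were above 11%, and the other groups were below 6%, with fewer CpGs in the GD18 comparison. Listed falls have a difference of at least 10 points, so this contrast follows in part from the listing. The GD18 region is shorter than 50 bp and has fewer than 10 CpGs, and without it the exon was listed in HFD males and HFD females only. The exon was not listed between control males and control females, while the Ucp2 intron 1513 bp further along was (22.1% against 4.5%).

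The 4 largest differences stood in regions of few CpGs, and the same count over all listed regions was not made. Of the 83 regions, 4 differed by at least 30 points, at Lpin1, Pklr, Pfkm and Ppargc1a, and they had 5 to 7 CpGs. Of the 34 regions with at least 10 CpGs, 5 differed by at least 20 points and the largest difference was 29.7 points, at Acacb between the control sexes. Of the 49 regions with fewer CpGs, 11 differed by at least 20 points. Whether few CpGs had a part in the large values was not tested.

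**Figure D4:**
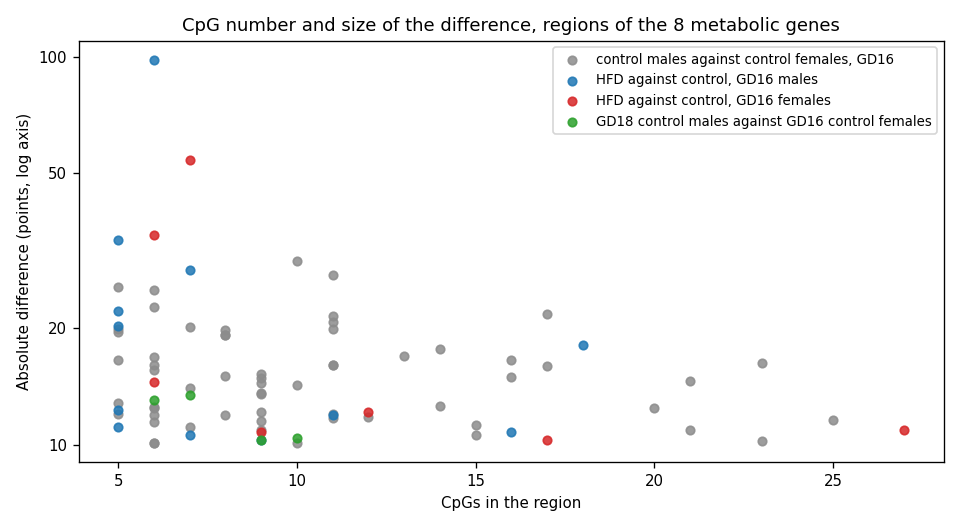
Absolute difference of the authors' 2 group means in points (vertical log axis) against the number of CpGs (horizontal axis) for the 83 regions, coloured by comparison. The 4 regions with a difference of at least 30 points have 5 to 7 CpGs, and no region with at least 10 CpGs exceeds 29.7 points.

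The other genes of these pathways were taken from 7 lists, chosen with earlier results known, which hold 98 genes beside the 8. Of the 68 with a region in any table, 27 (39.7%) had one in the HFD male comparison, where 35.6% of the 8243 genes did. In HFD females 4 (5.88%) had one, against 8.37% of all genes, and at GD18 also 4 (5.88%), against 7.50%. In the control sex comparison 65 (95.6%) had one, against 94.9%. In the HFD male comparison 29 of their 35 regions were lower, beside 74.0% of all regions of that table. Of the genes, 21 had falls alone, 4 rises alone and 2 both. The median taken here of their 35 differences in the authors' deposited table was -12.1 points. Over all regions of that table the median difference was 13.9 points regardless of direction. All 171 regions between the control sexes were higher in males, as were 99.7% of all regions of that table. The median taken here of their differences in the authors' deposited table was 14.9 points. Over all regions of that table it was 14.3 points regardless of direction.

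The counts by list in HFD males stand beside the same 74.0% and describe few regions each, and no list was tested. Glycolysis and gluconeogenesis genes had 12 regions, 11 of them lower. They were led by Pfkfb3, which makes the activator of phosphofructokinase (47.6 to 8.3%), and the lactate dehydrogenase gene Ldha (40.6 to 16.2%). The Ldha region has the same coordinates in the control sex table, with 40.6% in control males and 1.7% in control females. Among nuclear receptors and coactivators all 5 regions fell, led by Nrf1, a transcription factor of mitochondrial genes (38.4 to 9.8%), and the bile acid receptor gene Nr1h4 (29.9 to 5.6%). The 6 regions of fatty acid and triglyceride synthesis fell as well, with Scd, a fatty acid desaturase (22.2 to 5.2%), and Lpin2, the paralogue of Lpin1 (22.1 to 6.3%), in front. In lipolysis and oxidation 4 of 5 fell, such as the carnitine transferase gene Cpt1b (22.7 to 10.8%), and the fatty acid binding protein gene Fabp4 rose (6.4 to 19.0%).

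Energy sensing genes went both ways, with a rise at Tfam, a mitochondrial transcription factor (6.8 to 22.8%), and a fall at the kinase gene Stk11 (23.9 to 11.8%). The energy balance list had 1 gene with diet regions beside Fto. This was Rpgrip1l, the neighbour of Fto, with 1 rise (10.7 to 24.3%) and 1 fall. The cholesterol list had 1 region, which rose at the sterol regulator gene Srebf2 (10.9 to 21.5%).

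In HFD females the 4 other genes were Elovl6, a fatty acid elongase (15.1 to 4.3%), Acadl, a dehydrogenase of fatty acid oxidation (3.7 to 16.4%), Pfkp, the platelet form of phosphofructokinase (3.4 to 25.5% at the larger of its 2 regions), and the sterol transporter gene Abca1 (12.6 to 0.4%). The Elovl6 region recurs at GD18 with the same coordinates, where GD18 males had 1.6% and the same control females 15.1%. At GD18 the triglyceride synthesis gene Dgat2 was higher in males (15.9% against 1.8%) and Pfkp lower (5.0% against 17.1%).

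Between the control sexes the genes with the largest differences of each list gave the following ranges. Females had 0.9 to 6.8% and males 21.4 to 40.6% at Dgat2, Dgat1, Lipe, Acadm, Nrf1, Ppargc1b, Stk11, Prkag2, Lepr, Rpgrip1l, Ldha, Pfkp and Srebf2.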

How the data were processed

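Bisulfite capture libraries of 18 samples in 5 groups, assigned by the titles in the labels, were processed by the authors. The submitters' processing notes name the aligners Bowtie2 and Bismark 0.19.0. Per the series' design text, methylation was extracted per sample and locus, cut into segments of at least 50 bp and searched for differentially methylated regions. Coordinates stand as deposited, since the sources used here name no genome build. The 4 deposited full tables of comparisons were used. Each gives the mean methylation of a case and a control group as a fraction (per the file headers, averaged by the authors, printed here in percent), their signed difference as a score deposited by the authors, and a p-value and FDR deposited by the authors from a test headed as a two-sample t-test. The deposited lengths show that 180, 50, 179 and 58 regions are shorter than 50 bp in the HFD male, HFD female, control sex and GD18 tables.

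Transcript identifiers, with a stray bracket removed in 454 rows, were matched to RefSeq symbols (GRCr8, used for names only), which named 94.1 to 94.7% of them. Members were counted by table and direction beside the same count over all regions. Overlaps needed 1 bp. All of the members and lists were chosen with earlier results of these data known. Every region of a member in the diet and GD18 tables is given. Of the control sex table, the largest difference, the most CpGs and regions overlapping another table are given per gene, with a few further regions of Acacb, Ppard and Ppargc1a picked after their values were seen. Per pathway list and comparison the 2 other genes with the largest difference are named, except 1 that is not reported here. No test was run, because no value per sample was available for use. The 2 lists of large rises were not used here. Python 3.11.15, pandas 2.3.3, numpy 2.4.6 and matplotlib 3.10.9 were used, and the overlap step was checked on simulated data.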

Additional observations from a re-analysis of the deposited data

How the results depend on the processing

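No paired analysis was possible because no value per sample was available for use, and for the same reason no replicate could be left out. Counts were repeated with stricter settings. They were not repeated over all listed regions, so the losses cannot be called particular to these genes. With differences of at least 20 points, 5 of 12 regions stayed in HFD males (2 higher, 3 lower), 2 of 7 in HFD females, 9 of 60 between the control sexes and 0 of 4 at GD18. Between the control sexes a difference of 20.1 points, at Acacb, ranked 8003rd among all 47962 regions higher in males. With at least 10 CpGs, 3, 3, 27 and 1 stayed. This leaves out every diet region that differed by at least 20 points, at Lpin1, Pklr, Pfkm, Ppargc1a and Acacb. An FDR of at most 0.01 or a length of at least 50 bp kept these 4 totals within 1.5 times. By gene, the first removed Ppard at GD18, and the second removed Pklr in HFD males and Ucp2 at GD18, so that Ucp2 was then listed in the diet comparisons and the control sex comparison alone. Leaving out intergenic regions could change nothing, because such rows carry no gene. Of the 11 overlapping pairs of regions between tables, 5 overlapped by at least 50% of both regions and 0 had identical ends. Overlaps over all regions were not counted, so these counts describe the 8 genes only. Identical coordinates were shared with the control sex comparison by 1153 HFD male, 144 HFD female and 464 GD18 regions. The HFD female and GD18 comparisons shared 183. Of 120 counts by gene and setting, 39 moved by more than 1.5 times, all of them through loss of regions, since a stricter setting can only remove regions. The 120 include the intergenic setting, so the share that stayed overstates stability. Depth limits every level to an unknown degree.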
